A study of Mus musculus with 16 samples.

Results

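The late neutrophil granule and alarmin genes are 10 genes chosen by name, S100a8, S100a9, Camp, Ngp, Ltf, Lcn2, Chil3, Fpr2, Mmp8 and Mmp9, found through the array probes annotated to these symbols. They have 13 probes, 12 of which were above background often enough to be kept, so each of the 10 members had a tested probe among 10895 named genes and 11837 features in all. The study profiled haematopoietic stem cells of the mouse bone marrow on Illumina bead arrays. CD70TG mice (IFNgamma-/-xCD70TG), which carry a transgene for CD70, the ligand of the costimulatory receptor CD27, were set against control mice (IFNgamma-/-). All mice were C57Bl/6 and lacked interferon gamma in both genotypes, so no group has a normal interferon gamma gene. The labels name neither the cell type that expresses the transgene nor the age of the mice. From each genotype a long-term fraction (CD34-) and a short-term fraction (CD34+) were sorted, with 4 arrays per group, each made from RNA pooled from 2 mice. The sort description gives the same gate, negative for CD34, for both fractions, against the group names. The Cd34 probe differed between CD34+ and CD34- cells by -0.09 in CD70TG mice and by -0.17 in control mice (log2 scale, limma adjusted p of 0.813 and 0.438), which did not pass the test. Flt3, whose protein is absent from the gated cells by the same description, was not called between fractions, with differences of -0.61 in CD70TG mice and 0.25 in control mice (limma adjusted p of 0.539 and 0.766). Between genotypes the Flt3 transcript was higher in CD70TG mice by 1.94 in CD34- cells (limma adjusted p = 0.00164), and its difference of 1.08 in CD34+ cells did not pass (adjusted p = 0.073). Kit and Ly6a, which encode c-Kit and Sca-1 of the gate, had no probe annotated to them.

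Neutrophils fill their granules in waves as they mature in the marrow: primary granules at the promyelocyte stage, then secondary and tertiary granules in later stages that no longer divide. The transcription factor C/EBP epsilon is required for most secondary granule proteins in mice. S100a8 and S100a9 form calprotectin, an abundant cytosolic protein of neutrophils that acts as an alarmin when it leaves the cell. Transcripts of these proteins are commonly used to mark maturing neutrophils, not stem cells. In bulk RNA, fewer cells of a type and less RNA per cell cannot be told apart.

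Promoters are shown because the members' levels went together over the arrays. RefSeq sequences (build GRCm38.p6) were matched for 9 of the 10 members, all but Mmp9, and the 250 bases before each start were searched on both strands. The C/EBP pattern TTNNGNAA (TTNCNNAA on the other strand) was found in 8 of the 9 windows, against 36.8% of 32851 promoter windows of the same length. The PU.1 pattern GAGGAA, also searched on both strands, was found in 5 of the 9, against 23.3% of all windows, and no match of one pattern overlapped one of the other in a member's window. A match is a run of letters and not a bound site. Shown are S100a8 (chr3:90668821-90669070, plus strand) with 1 C/EBP match and Camp (chr9:109849457-109849706, minus strand) with no match. Ngp (chr9:110419558-110419807, plus strand) and Ltf (chr9:111019042-111019291, plus strand) are also shown, with 3 and 2 C/EBP matches. All of these genes were lower in CD34+ cells of both genotypes, and S100a8 and Camp were also higher in CD70TG cells of both fractions. Chil3, called in the same comparisons as S100a8, holds 3 C/EBP matches and is not shown. The number of matches was not tested against the differences. Capitals mark the C/EBP pattern.
S100a8: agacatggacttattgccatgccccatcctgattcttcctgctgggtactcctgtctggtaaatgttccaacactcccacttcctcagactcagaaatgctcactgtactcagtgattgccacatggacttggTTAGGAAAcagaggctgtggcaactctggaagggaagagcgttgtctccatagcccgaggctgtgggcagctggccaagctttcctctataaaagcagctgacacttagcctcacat
Camp: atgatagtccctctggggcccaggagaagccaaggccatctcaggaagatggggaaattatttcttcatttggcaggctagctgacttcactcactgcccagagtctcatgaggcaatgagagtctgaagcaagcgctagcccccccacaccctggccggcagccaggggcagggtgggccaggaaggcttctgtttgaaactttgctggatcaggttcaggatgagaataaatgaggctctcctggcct
Ngp: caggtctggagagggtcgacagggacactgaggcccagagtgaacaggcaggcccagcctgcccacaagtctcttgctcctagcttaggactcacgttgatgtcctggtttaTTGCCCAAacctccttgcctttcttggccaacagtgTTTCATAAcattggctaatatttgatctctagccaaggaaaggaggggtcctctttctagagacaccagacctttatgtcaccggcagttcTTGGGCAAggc
Ltf: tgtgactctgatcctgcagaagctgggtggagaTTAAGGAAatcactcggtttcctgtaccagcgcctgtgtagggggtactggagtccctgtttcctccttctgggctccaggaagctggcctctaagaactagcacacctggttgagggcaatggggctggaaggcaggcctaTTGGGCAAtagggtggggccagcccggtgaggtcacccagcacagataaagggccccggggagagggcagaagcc

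The values are deposited log values, taken as log2, with medians of 6.43 to 6.53 per array, and arrays of a group correlated at 0.986 to 0.996. Between 50.2% and 57.3% of probes were above background per array, and the number of arrays limits the precision. On the first principal component of all tested features (50.6% of the variance) an array of each genotype stood apart from its group. CD70TG CD34- replicate 2 lay at 0.67, against 15.62 to 26.41 for the other arrays of its group. Control CD34+ replicate 4 lay at 5.48, against -19.71 to -11.44 for its group. Without both arrays, 5 and 4 members were called between genotypes in CD34- and CD34+ cells, as with them, Mmp8 included, and 10 and 8 between fractions in CD70TG and control mice. The features called moved more, to 3714 and 3026 between genotypes in CD34- and CD34+ cells, against 3293 and 2153 with both arrays. Between fractions they were 659 and 730 in CD70TG and control mice, against 710 and 986.

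Of the 10 members, 9 were above background on all 16 arrays. Mmp8 was above background on 7, among them all 4 CD70TG CD34- arrays, so it passed the filter of 4 arrays through the group where it is highest, and it is given apart from the counts. The other 9 had the same order of group means: CD70TG CD34- highest, then control CD34-, CD70TG CD34+ and control CD34+. The middle neighbours in this order, control CD34- and CD70TG CD34+, did not overlap for S100a9, Ngp, Ltf and Fpr2 and overlapped for S100a8, Camp, Lcn2, Chil3 and Mmp9. This comparison across both factors was not tested. The share of all features that did not overlap between these groups was not computed, so the overlaps only describe the arrays.

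**Figure D1:**
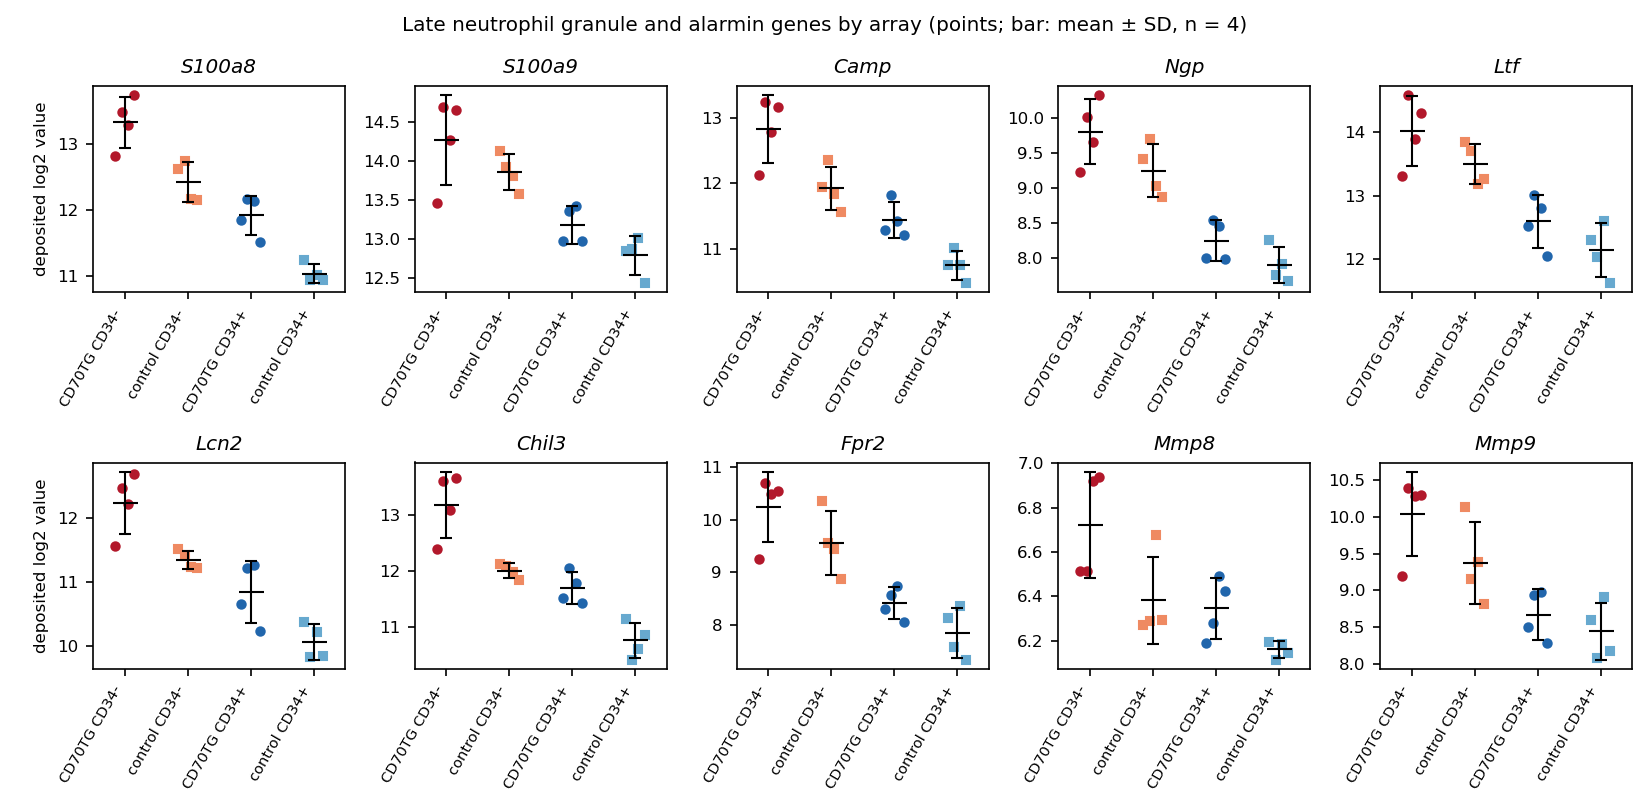
Deposited log2 values of the 10 members on each of the 16 arrays, in 1 panel per gene with its own vertical axis, by group. Points are arrays, placed by replicate number within a group, and bars give the mean and SD of 4 arrays. CD70TG CD34- arrays are highest on average and control CD34+ arrays lowest in each panel. In the Mmp8 panel the lower 3 groups lie near background.

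The first question was whether the CD70 transgene went with a change in these genes in long-term stem cells. In CD34- cells, 4 of the 9 members above background were higher in CD70TG than in control mice, Chil3, S100a8, Camp and Lcn2, and none was lower. Mmp8 was called higher too, as a probe that passed the filter through the higher group. Across all features 16% were called higher and 11.8% lower in this comparison by limma at an adjusted p of 0.05, and 13.4% had every CD70TG array above every control array, as 3 members did. The median difference of the 9 was 0.69, against 0.02 for all features. With quantile normalization the split of all calls turned to 1619 higher and 2003 lower, against 1893 higher and 1400 lower on the deposited scale, and 5 members were called, Mmp8 included, in each case.

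Chil3, also known as Ym1, encodes a chitinase-like lectin of neutrophils and macrophages and had the largest difference of the members. It read 12.39, 13.61, 13.10 and 13.66 on the CD70TG CD34- arrays, against 12.12, 12.09, 11.99 and 11.83 on the control CD34- arrays. The difference was 1.18 ± 0.22 (SE, limma adjusted p = 0.000695), and the groups did not overlap, although CD70TG replicate 1 lay close to the controls. A further kept Chil3 probe gave 1.45 (adjusted p = 5.03e-05 with each probe tested on its own).

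S100a8, the smaller calprotectin subunit, read 12.81, 13.48, 13.28 and 13.73 in CD70TG CD34- cells, against 12.62, 12.74, 12.17 and 12.16 in control CD34- cells. Every CD70TG array was above every control array, with a difference of 0.90 ± 0.18 (SE, limma adjusted p = 0.00129). Its partner S100a9 read 13.46, 14.70, 14.28 and 14.66 in CD70TG cells, against 14.13, 13.93, 13.81 and 13.58 in control cells. S100a9 did not pass the test (0.41 ± 0.21, limma adjusted p = 0.16), and CD70TG replicate 1 lay below all 4 control arrays. The difference between the responses of the partners was not tested.

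Camp, the precursor of the cathelicidin antimicrobial peptide, read 12.12, 13.24, 12.78 and 13.17 in CD70TG CD34- cells, against 11.95, 12.36, 11.83 and 11.57 in control CD34- cells. It was higher by 0.90 ± 0.21 (SE, limma adjusted p = 0.00391), with CD70TG replicate 1 inside the control range. Ngp, a related cathelin-like granule protein, averaged 9.81 ± 0.47 in CD70TG and 9.25 ± 0.38 in control CD34- cells (SD, n = 4 each). Its difference of 0.56 did not pass (limma adjusted p = 0.067).

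Lcn2, which binds bacterial siderophores, read 11.57, 12.47, 12.22 and 12.69 in CD70TG CD34- cells, against 11.52, 11.42, 11.24 and 11.22 in control CD34- cells. All CD70TG arrays were above the controls, with a difference of 0.89 ± 0.23 (SE, limma adjusted p = 0.00689). Ltf, the iron-binding lactoferrin, averaged 14.02 ± 0.55 in CD70TG and 13.50 ± 0.32 in control cells (SD, n = 4 each). The Ltf probe that stands for the gene differed by 0.52 and did not pass (limma adjusted p = 0.144), while a further Ltf probe differed by 0.86 and passed when each probe was tested on its own (limma adjusted p = 0.0333).

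Mmp8, neutrophil collagenase, was above background on all 4 CD70TG CD34- arrays but on 1 of 4 control CD34- arrays. It read 6.51, 6.52, 6.92 and 6.94 in CD70TG CD34- cells, against 6.27, 6.29, 6.68 and 6.29 in control CD34- cells. The fitted difference of 0.34 ± 0.11 passed (limma adjusted p = 0.0228), but the control mean of 6.38 lies within the range of its arrays' background limits, 6.36 to 6.51, so its size is not well measured. It did not pass when only the arrays of these 2 groups were fitted (limma adjusted p = 0.0705). Mmp9, gelatinase B of tertiary granules, read 9.19, 10.40, 10.28 and 10.31 in CD70TG CD34- cells, against 10.13, 9.16, 9.38 and 8.82 in control CD34- cells. Fpr2, a receptor for formylated peptides, read 9.26, 10.70, 10.49 and 10.54 in CD70TG CD34- cells, against 10.35, 9.56, 9.44 and 8.87 in control CD34- cells. In both genes 3 CD70TG arrays were above all controls and replicate 1 was among the controls. Neither passed, with differences of 0.67 for Mmp9 (limma adjusted p = 0.0849) and 0.69 for Fpr2 (adjusted p = 0.112).

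CD70TG CD34- replicate 1 was the lowest array of its group for all 10 members. Without it all 10, Mmp8 included, were called higher in CD70TG CD34- cells, against 5 with it. Leaving out the lowest array raises the CD70TG mean of every member by construction, so this count is no separate evidence. The features called in this comparison fell to 2526 without it, against 3293 with it.

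In short-term stem cells the same comparison called 4 of the 9 members above background higher in CD70TG mice and none lower: Chil3, S100a8, Lcn2 and Camp. Across all features 7.59% were called higher and 10.6% lower, and 8.62% had every CD70TG array above every control array, as 3 members did. The median difference of the 9 was 0.57, against 0.02 for all features.

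S100a8 read 11.84, 12.16, 12.14 and 11.52 in CD70TG CD34+ cells, against 11.24, 10.93, 11.02 and 10.95 in control CD34+ cells. The groups were apart on every array, by 0.88 ± 0.18 (SE, limma adjusted p = 0.00229). Chil3 read 11.52, 12.05, 11.79 and 11.44 in CD70TG CD34+ cells, against 11.15, 10.42, 10.61 and 10.86 in control CD34+ cells. It too was higher on every CD70TG array, by 0.94 ± 0.22 (SE, limma adjusted p = 0.00603).

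Camp read 11.29, 11.83, 11.42 and 11.21 in CD70TG CD34+ cells, against 10.76, 11.02, 10.76 and 10.48 in control CD34+ cells. Every CD70TG array was above every control array, by 0.69 ± 0.21 (SE, limma adjusted p = 0.0313). Lcn2 read 10.66, 11.22, 11.27 and 10.24 in CD70TG CD34+ cells, against 10.38, 9.83, 10.22 and 9.84 in control CD34+ cells. It was higher by 0.78 ± 0.23 (SE, limma adjusted p = 0.0227), with CD70TG replicate 4 inside the control range. The Camp and Lcn2 calls each rest on few arrays: without CD70TG CD34+ replicate 2 or replicate 3 only 2 members, S100a8 and Chil3, were called.

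The other members did not pass in CD34+ cells, with differences of 0.57 for Fpr2, 0.45 for Ltf, 0.39 for S100a9, 0.34 for Ngp and 0.23 for Mmp9 (limma adjusted p between 0.216 and 0.62). Mmp8 was above background on 2 of 4 CD70TG and 0 of 4 control CD34+ arrays. It averaged 6.35 ± 0.14 in CD70TG and 6.16 ± 0.04 in control CD34+ cells (SD, n = 4 each), and no fold is given because the CD70TG mean is under the control arrays' background limit.

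**Figure D2:**
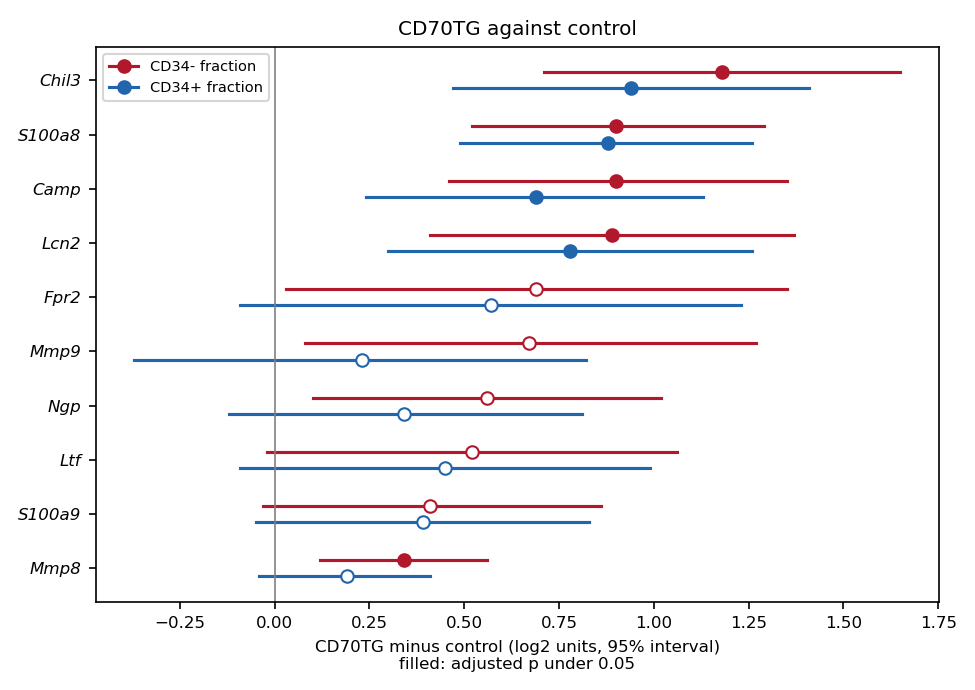
CD70TG minus control for each member (log2 units, horizontal axis) with 95% intervals from the fit over 16 arrays, in CD34- cells and CD34+ cells. Filled points passed an adjusted p of 0.05: 5 members in CD34- cells, Mmp8 near background included, and 4 in CD34+ cells, all to the right of 0.

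Whether the transgene's difference itself depended on the fraction was tested as an interaction. None of the 10 members was called, at adjusted p or at an unadjusted p under 0.05, where limma called 0.355% and 7.33% of all features. The differences of differences (CD34+ minus CD34-) ran from -0.44 for Mmp9 to -0.02 for S100a8 and S100a9, with 95% intervals between -1.28 and 0.81. These bounds are the outermost ends of the members' intervals, which differ in width, as for S100a8 (-0.57 to 0.52) and Mmp9 (-1.28 to 0.39). Every interval includes 0, which does not show that the responses of the fractions were equal.

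The fractions were then compared within each genotype. In CD70TG mice all 9 members above background were lower in CD34+ than in CD34- cells, and for these 9 every CD34+ array was below every CD34- array. Across all features 4.4% were called lower, and 8.79% had every CD34+ array below every CD34- array. The median difference of the 9 was -1.41, against -0.02 for all features.

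Fpr2 had the largest difference. It read 8.31, 8.57, 8.74 and 8.04 in CD34+ cells of CD70TG mice, against 9.26, 10.70, 10.49 and 10.54 in their CD34- cells, and fell by 1.83 on the log2 scale (SE 0.31, limma adjusted p = 0.000736). Ngp read 7.99, 8.54, 8.45 and 7.98 in CD34+ cells, against 9.23, 10.02, 9.66 and 10.33 in CD34- cells of the same genotype. It fell by 1.57 (SE 0.22, limma adjusted p = 9.1e-05).

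S100a8 was lower by a difference of -1.41 (limma adjusted p = 3.63e-05) and S100a9 by -1.09 (adjusted p = 0.00237). Camp, Lcn2, Ltf, Chil3 and Mmp9 lay between -1.49 and -1.37. Mmp8, above background on 2 of 4 CD34+ arrays, was called by the fit (-0.37, limma adjusted p = 0.0416) through the group that passed it through the filter. The call was lost when only these groups were fitted (adjusted p = 0.0568) and when 1 array was left out in 8 of 16 cases.

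In control mice all 9 members above background were lower in CD34+ than in CD34- cells. Across all features 4.34% were called lower, and 6.6% had every CD34+ array below every CD34- array, as 8 of the 9 did. The median difference of the 9 was -1.28, against -0.01 for all features.

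Fpr2 read 8.13, 7.57, 8.36 and 7.34 in control CD34+ cells, against 10.35, 9.56, 9.44 and 8.87 in control CD34- cells, a difference of -1.71 (limma adjusted p = 0.00178). S100a8 read 11.24, 10.93, 11.02 and 10.95 in control CD34+ cells, against 12.62, 12.74, 12.17 and 12.16 in control CD34- cells. Its difference of -1.39 (limma adjusted p = 6.32e-05) was larger than the whole range of either group.

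Ltf averaged 12.15 ± 0.42 in CD34+ and 13.50 ± 0.32 in CD34- cells of control mice (SD, n = 4 each), a difference of -1.35 (limma adjusted p = 0.00231). Mmp9 read 8.60, 8.08, 8.91 and 8.18 in control CD34+ cells, against 10.13, 9.16, 9.38 and 8.82 in control CD34- cells. The groups overlapped by 1 array, and the difference of -0.93 passed narrowly (limma adjusted p = 0.0491), a call lost under 5 of 7 other settings (adjusted p between 0.0531 and 0.22) and when 1 array was left out in 12 of 16 cases. Mmp8 was above background on 0 of 4 control CD34+ arrays and 1 of 4 control CD34- arrays, so no difference is given, and it was not called (limma adjusted p = 0.218).

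**Figure D3:**
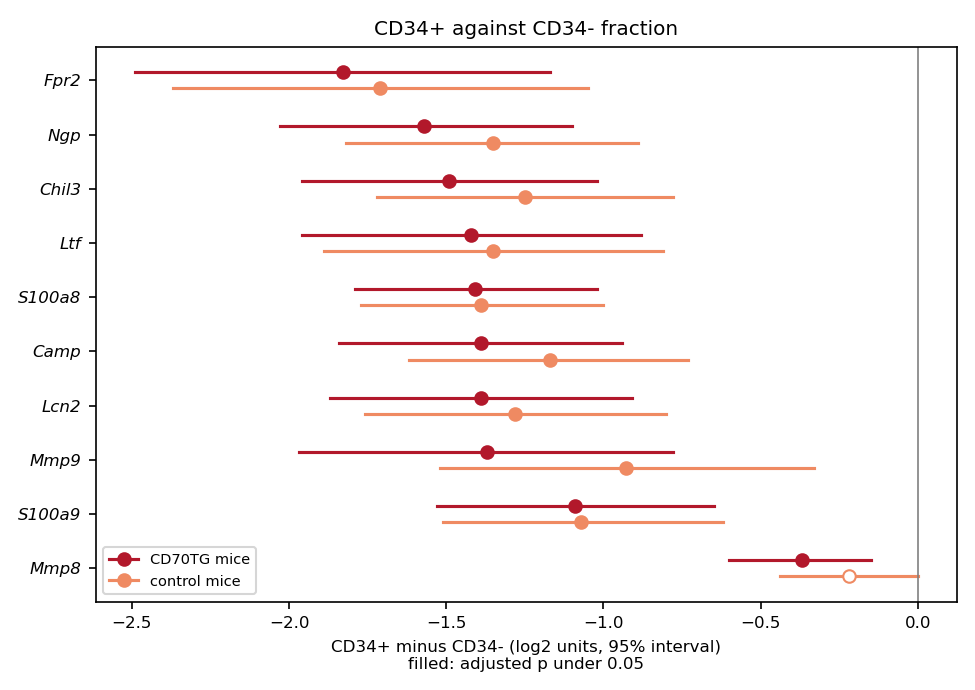
CD34+ minus CD34- for each member (log2 units, horizontal axis) with 95% intervals, in CD70TG mice and control mice. Filled points passed an adjusted p of 0.05: 10 members in CD70TG mice and 9 in control mice, all to the left of 0. Mmp8, open in control mice, is near background in all groups but CD70TG CD34-.

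The members also varied together from array to array within groups. Over the 16 arrays, the deviations from group means of 45 pairs of members correlated at a median of 0.80, from -0.06 to 0.97. The lowest values involved Mmp8, and the 36 pairs without it lay at 0.57 or above. Each member's level correlated with the mean of the other 9 at 0.756 (Mmp8) to 0.983 (Lcn2), a description over arrays that share groups and hybridisations.

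These deviations ran with a signed contrast between probes of 1 gene, whose origin was not tested. Among 1335 genes with exactly 2 bright probes, members left out, the first axis of the difference between probes (49.4% of its variance) gives each array a probe discordance index. The sign of this axis is arbitrary and was set so that CD70TG arrays average higher than control arrays. A high index is therefore a position along the axis and not a larger amount of disagreement. It averaged 0.72 ± 0.62 in CD70TG CD34- and -1.19 ± 0.41 in control CD34- cells, and 0.86 ± 0.34 in CD70TG CD34+ and -0.39 ± 0.75 in control CD34+ cells (SD, n = 4 each). Within groups, 9 members correlated negatively with the index, from -0.32 (Chil3) to -0.81 (Ltf), and Mmp8 had 0.33.

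With the index as a covariate, 8 members were called higher in CD70TG CD34- cells and 7 in CD70TG CD34+ cells, while the features called dropped to 628 and 992, against 3293 and 2153 without it. S100a9 then differed by 1.26 in CD34- cells (limma adjusted p = 0.00495) and 0.94 in CD34+ cells (adjusted p = 0.00489). Ltf differed by 1.72 and 1.23 (limma adjusted p of 0.000328 and 0.000508). Mmp8 lost its call in CD34- cells, with 0.15 (adjusted p = 0.756). The index differs between the genotypes, so the fit rests on the spread of the index within groups.

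**Figure D4:**
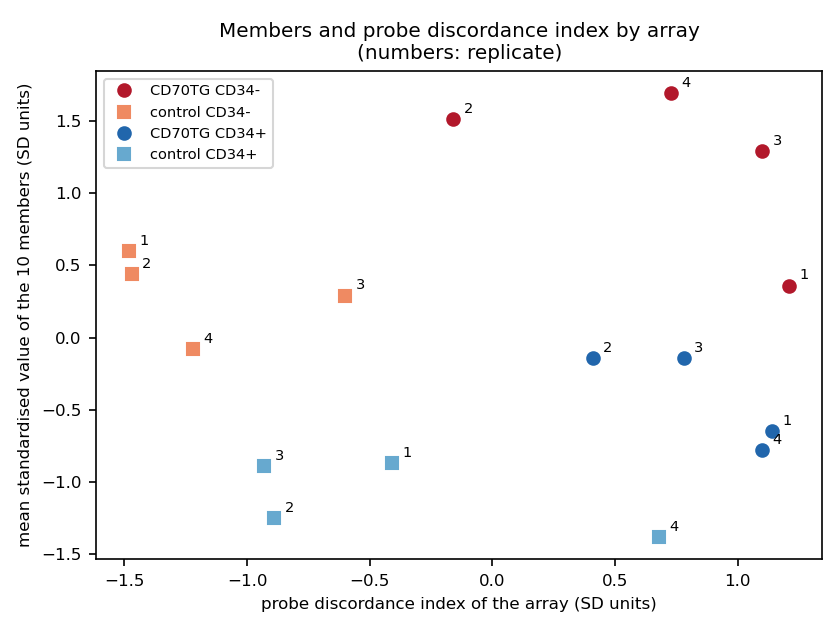
Mean standardised value of the 10 members (vertical axis, SD units) against the probe discordance index (horizontal axis, SD units), 1 point per array, numbered by replicate. CD70TG CD34- arrays lie between 0.36 and 1.69 on the vertical axis and control CD34+ arrays between -1.38 and -0.87. CD70TG CD34- replicate 1 has the highest index of all arrays, 1.21, on an axis whose sign was set by genotype.

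The 6 genes whose level over the 16 arrays was most like the members' mean were Itgb2l (r = 0.984), Ifitm6 (r = 0.979), Chil1 (r = 0.977), Lrg1 (r = 0.975), Retnlg (r = 0.959) and Lgals3 (r = 0.952). Chil1 encodes another chitinase-like protein and Lgals3 encodes galectin-3. These genes were picked for likeness over the same arrays. Their group differences therefore follow from the choice and are only a description. In CD34- cells Ifitm6 was higher in CD70TG mice by 1.00 (limma adjusted p = 0.0127), Chil1 by 0.70 (adjusted p = 0.0147), Retnlg by 0.74 (adjusted p = 0.0451) and Itgb2l by 0.63 (adjusted p = 0.0354). Lrg1 (0.69) and Lgals3 (0.75) did not pass. All 6 were lower in CD34+ than in CD34- cells in both genotypes, from -1.62 for Lgals3 to -1.22 for Lrg1 in CD70TG mice and from -1.40 for Lgals3 to -0.96 for Lrg1 in control mice.

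Other late granule and mature neutrophil genes moved the same way in part. This list holds Itgb2l, Ifitm6, Lrg1 and Retnlg, already described above. Of 26 tested, 12 were higher and none lower in CD70TG CD34- cells (median 0.52), and 7 were higher and none lower in CD70TG CD34+ cells (median 0.31). Cybb, named after its values were seen, is among the 12. It was above background on 3 CD70TG CD34- arrays, 1 CD70TG CD34+ array and 0 control arrays, so it passed the filter through CD70TG arrays. Between fractions, 10 fell and none rose in CD34+ cells of CD70TG mice, and 9 fell and 1 rose in control mice. In CD34- cells those with the smallest adjusted p were Wfdc21, higher by 1.60, Anxa1, the annexin that acts through formyl peptide receptors, by 2.03, and Fcnb, a ficolin, by 0.67 (limma adjusted p of 1.75e-05, 3.22e-05 and 0.000132). In CD34+ cells they were Slpi, a protease inhibitor, by 1.66, Trem3 by 1.39 and Ncf1, a subunit of the NADPH oxidase, by 0.81 (limma adjusted p of 9.93e-05, 0.000147 and 0.000308).

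Of the 32 genes of this list on the array, 18 were above background on all 16 arrays and 4 on 0 of 16. Named after their values were seen, the 4 are Olfm4, Padi4, Stfa2 and Stfa3. Cxcr2, the chemokine receptor of mature neutrophils, also named afterwards, averaged 6.99 in CD70TG CD34- and 6.61 in control CD34- cells, and 6.88 in CD70TG CD34+ and 6.48 in control CD34+ cells. In these groups it was above background on 4, 3, 4 and 2 arrays. Neither genotype difference passed (limma adjusted p of 0.0511 in CD34- and 0.0558 in CD34+ cells).

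Primary granule genes, made at the promyelocyte stage, had most of their calls between genotypes. So did all features, of which 27.8% and 18.2% were called between genotypes in CD34- and CD34+ cells. Between fractions 6% and 8.33% of all features were called in CD70TG and control mice. Of 10 primary granule genes tested, 9 were higher in CD70TG CD34- cells (median 1.24) and 7 in CD70TG CD34+ cells (median 0.94), and none was lower. Ctsg, cathepsin G, was higher by 3.85 and 3.38 in these fractions (limma adjusted p of 1.13e-08 and 5.96e-08). Mpo, myeloperoxidase, was higher by 2.30 and 2.05 (adjusted p of 5.86e-09 and 2.11e-08), and Ms4a3 by 2.62 and 1.47 (adjusted p of 7.37e-09 and 3.97e-06). Between fractions in CD70TG mice 3 of the 10 were lower in CD34+ cells and none was higher (median -0.04). In control mice 1 was lower and 3 were higher (median 0.17), among them Ms4a3, higher in CD34+ cells by 1.26 (limma adjusted p = 4.97e-05).

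Of 9 granulocyte transcription factors tested, 4 were higher in CD70TG CD34- cells and 3 in CD70TG CD34+ cells, with none lower. Cebpe, which encodes C/EBP epsilon, was higher by 0.92 in CD34- cells and 0.52 in CD34+ cells (limma adjusted p of 0.000748 and 0.0436). It was lower in CD34+ than in CD34- cells, by a difference of -1.14 in CD70TG mice and -0.75 in control mice (limma adjusted p of 0.000218 and 0.0118). Irf8, a factor of the monocyte lineage, was higher in CD70TG mice by 0.97 and 1.97 in CD34- and CD34+ cells (limma adjusted p of 0.00436 and 8.14e-06) and was not called between fractions. Ets1 was higher by 0.37 in CD34- cells (limma adjusted p = 0.0288). Gfi1 was higher by 0.41 in CD34- cells and 0.55 in CD34+ cells (limma adjusted p of 0.0481 and 0.0141). Between fractions Gfi1 differed by -0.61 in control mice (limma adjusted p = 0.0148), and its -0.47 in CD70TG mice did not pass (adjusted p = 0.0752). Cebpa and Spi1, which encodes PU.1, named after their values were seen, differed by 0.05 and 0.04 in CD34- cells and did not pass.

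Genes of the members' own families had calls in both directions, as all features did. Across all features 16% were called higher and 11.8% lower in CD70TG CD34- cells, and 7.59% and 10.6% in CD70TG CD34+ cells. Of 9 other S100 genes 1 was higher and 1 lower in CD70TG CD34- cells, S100a10 by 0.99 and S100a1 by -0.39 (limma adjusted p of 0.000847 and 0.0243). In CD34+ cells none was higher and 4 were lower, S100a1 (-0.71), S100a6 (-0.56) and S100a5 (-0.27) among them. None was called between fractions in CD70TG mice, and 2 were higher in CD34+ cells of control mice.

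Of 8 other matrix metalloproteinases 1 was higher and 4 lower in CD70TG CD34- cells, and 0 were higher and 3 lower in CD34+ cells. The shares of all features were 16% higher and 11.8% lower in CD34- cells, and 7.59% and 10.6% in CD34+ cells. Mmp14, a membrane-bound metalloproteinase, differed by -1.20 and -1.23 (limma adjusted p of 9.56e-07 and 1.05e-06), and Mmp2, gelatinase A, by -1.02 and -0.90 (adjusted p of 0.000327 and 0.00138). Mmp11 was lower in CD34- cells (-0.38) and Mmp17 in both (-0.46 and -0.47). Between fractions 2 were lower in CD34+ cells of CD70TG mice and 3 in control mice. The other chitinase family list had 1 tested gene, Chil1, described above.

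Receptors and inhibitors of the members' proteins had calls in both directions. Of 7 receptors and inhibitors 1 was higher and 2 lower in each fraction of CD70TG mice, where 27.8% and 18.2% of all features were called either way. Timp3, an inhibitor of metalloproteinases, was lower in both (-0.52 and -0.47, limma adjusted p of 0.000612 and 0.00218). Slc22a17, the lipocalin 2 receptor, was lower (-0.43) and Lrp1 higher (0.18) in CD34- cells, while Timp2 was lower (-0.64) and Tfrc, the transferrin receptor, higher (0.69) in CD34+ cells. Between fractions 2 were lower in CD34+ cells of CD70TG mice and none was called in control mice. Of 6 other alarmins and alarmin receptors 3 were lower in each fraction of CD70TG mice and none was higher, where 11.8% and 10.6% of all features were lower. They were Tlr2 (-0.48 and -0.64), which senses bacterial lipoproteins, its adaptor Myd88 (-0.40 and -0.34) and the cytokine Il18 (-0.42 and -1.10), and 2 of the 6 were lower in CD34+ cells of each genotype.

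Markers of other cells moved with the same comparisons, and their part in the members' differences was not tested. Of 11 macrophage markers 10 were higher in CD70TG CD34- cells, with a mean marker level of 8.94 to 9.32 in CD70TG and 7.66 to 7.87 in control CD34- arrays. In CD34+ cells that level was 7.05 to 7.27 in CD70TG and 7.04 to 7.17 in control arrays, and 2 markers were called higher and 2 lower. Between fractions 10 were lower in CD34+ cells of CD70TG mice, and 7 were lower and 1 higher in control mice. For these markers the interaction called 10 of 11, against 0 of the 10 members. Siglec1, named after its values were seen, was above background on 4 of 4 CD70TG CD34- arrays and on 0 in every other group. It passed the filter through the group where it is highest and is counted in these calls. Of the 12 macrophage markers on the array, 5 were above background on all 16 arrays and 1, Cd5l, named after its values were seen, on 0.

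Of 7 monocyte markers 5 were higher in each fraction of CD70TG mice, with a mean level of 8.54 to 8.86 in CD70TG and 7.63 to 7.97 in control CD34- arrays, and of 8.34 to 8.95 in CD70TG and 7.36 to 7.61 in control CD34+ arrays. Between fractions 1 was higher and 1 lower in CD70TG mice, and 2 were lower in control mice. Of the 9 monocyte markers on the array 4 were above background on all 16 arrays and 2, Ccr2 and Ms4a6c, named after their values were seen, on 0. Of 6 B cell markers 6 were lower in CD70TG CD34- cells and 4 in CD34+ cells. Of 12 stem cell markers 7 were lower in each fraction of CD70TG mice, with 1 and 0 called between fractions in CD70TG and control mice. Of 6 T and NK cell markers 1 was higher in CD70TG CD34- cells and 1 lower in CD70TG CD34+ cells. The higher one, Nkg7 (0.70, limma adjusted p = 0.00306), named after its values were seen, is also counted among the primary granule genes. None of 6 erythroid markers was called between genotypes.

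**Figure D5:**
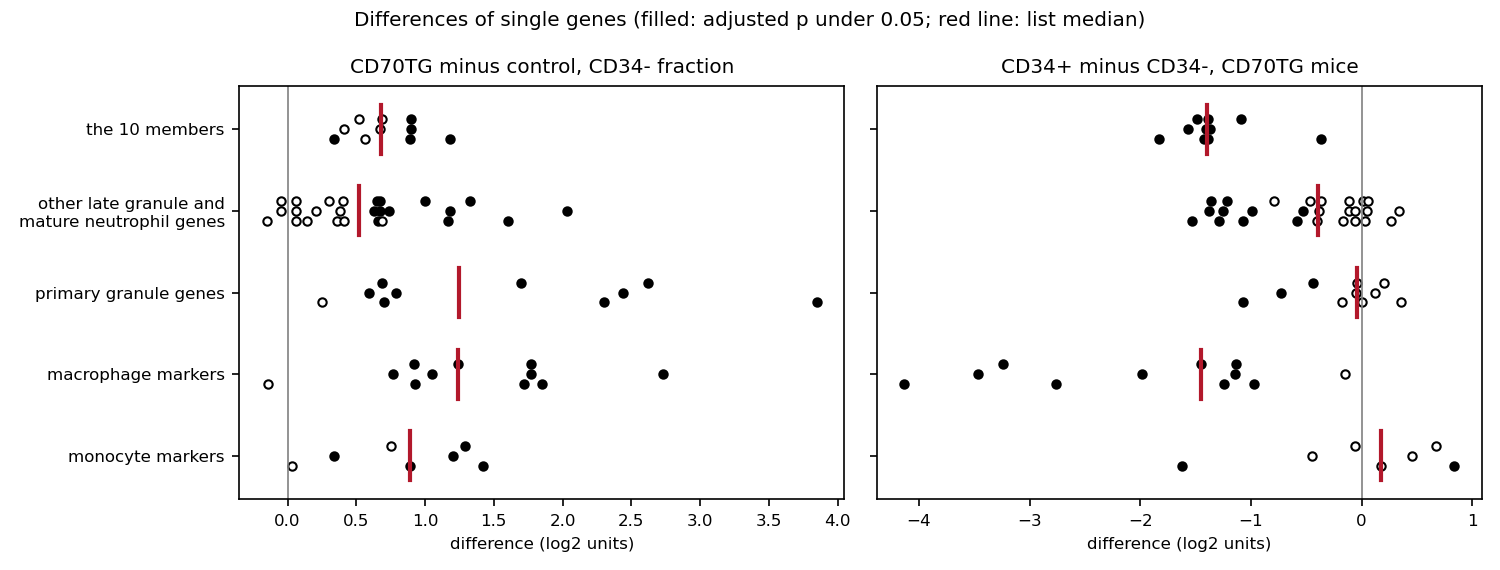
Differences of single genes (log2 units, horizontal axis) by list, for CD70TG minus control in CD34- cells (left) and CD34+ minus CD34- in CD70TG mice (right). Filled points passed an adjusted p of 0.05 and red lines are list medians. The medians of the 10 members, Mmp8 included, are 0.68 and -1.40, those of the primary granule genes 1.24 and -0.04, and those of the macrophage markers 1.24 and -1.45.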

How the data were processed

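RNA was amplified in 2 rounds and labelled with biotin, per the labels' protocols. The values deposited by the authors for 25697 probes are on a log scale, taken here as log2. No source used here states their log base, background correction or normalization. A second deposited table with 32 value columns for 16 arrays stayed out, since none of its columns can be tied to a sample. The members and lists were chosen with earlier results of these data known.

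A probe was kept if it exceeded the mode of its array by 1.64 SD of the values below the mode on at least 4 of the 16 arrays, which 15537 did. Of the probes, 23978 had 1 symbol in the platform annotation, 0 several and 1719 none. The kept probe with the highest mean stood for a gene. Groups were compared with limma 3.58.1 (R 4.3.3), with lmFit on 4 group means and 12 residual degrees of freedom, followed by eBayes with an intensity trend. P-values were Benjamini-Hochberg adjusted over all 11837 features. The fit was tested on simulated data.

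Named besides the members are, from each gene list other than the cell type markers, the called genes with the 3 smallest adjusted p in each genotype comparison, the 6 genes most like the members' mean, genes of the sort gate, and a few genes said to be named after their values were seen. No array shared over 0.288% of its values with another, and each array was 1 replicate.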

Additional observations from a re-analysis of the deposited data

Results flagged for a closer look

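Of 40 sets of 4 arrays (10 members in 4 groups), 3 held an array far from the other 3. Chance alone gives about 1 in 20 for independent sets. These sets share arrays, and the deviations of Fpr2 and Mmp9 correlated at 0.972, so the flags are not separate events. Fpr2 on CD70TG CD34- replicate 1 was 9.259, with the nearest other array at 10.487. Mmp9 on the same array was 9.193, with the nearest other at 10.28. Mmp8 on control CD34- replicate 3 was 6.677, with the nearest other at 6.294. CD70TG CD34- replicate 1 was the lowest of its group for all 10 members.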

How the results depend on the processing

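The number of members called moved by over 1.5 times once the probe discordance index entered the fit, to 8 in CD34- cells and 7 in CD34+ cells between genotypes, and the features called moved to 628 and 992. The cause was not tested. Fitting only the arrays of the groups compared called 486 features between fractions in control mice, against 986. Leaving out each array in turn gave 4 to 10 members (2526 to 3551 features) between genotypes in CD34- cells, with 10 without CD70TG CD34- replicate 1 (counts here include Mmp8). It gave 2 to 4 members (1458 to 2740 features) in CD34+ cells, with 2 without CD70TG CD34+ replicate 2 or replicate 3 and 1458 features without replicate 1. Between fractions it gave 9 to 10 members (536 to 743 features) in CD70TG mice and 8 to 9 members (623 to 1173 features) in control mice, with 623 features without control CD34- replicate 4. The interaction called 0 to 0 members (29 to 58 features). Differences of differences changed sign with quantile normalization for S100a8 (0.09), S100a9 (0.09) and Ltf (0.00). Without 1 array they ran from -0.20 to 0.11 for S100a8, -0.29 to 0.12 for S100a9, -0.31 to 0.11 for Ltf, -0.45 to 0.11 for Fpr2 and -0.33 to 0.09 for Lcn2. No sign of a genotype or fraction difference of a member turned under any alternative run. Leaving out both arrays that stand apart was chosen after seeing the data. Arrays with the same replicate number had deviations correlated at -0.307 to 0.653, not every pair over 0.1. Between the fractions of CD70TG mice, replicates 1 and 2 correlated at 0.443 and 0.653, and replicates 3 and 4 at -0.03 and 0.158. These correlations cannot settle whether a shared number means shared mice, and the main fit does not pair arrays. With the replicate number as a block the members called were 5, 4, 10, 9 and 0 in the 5 comparisons, as without it, and the features 3396, 2400, 733, 1075 and 46. Signal near background limits Mmp8, and 4 arrays a group limit the rest.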
